A study of Mus musculus with 13 samples.

Results

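Osteoclast acid secretion was described from 7 genes, taken from the deposited gene table by their symbols and found in full among its 18748 genes. They encode 2 subunits of the osteoclast proton pump (Tcirg1, Atp6v0d2), the chloride exchanger that accompanies it with its partner (Clcn7, Ostm1), a pair of vesicle traffic proteins (Snx10, Plekhm1) and the cytosolic carbonic anhydrase that supplies the protons (Car2). The study sequenced messenger RNA from the mandibular condylar cartilage, the cap of the lower jaw where it meets the skull, in mice of 2 ages. There were 6 libraries of aged mice (18 months) and 7 of young mice (2 months). The labels number the libraries within each age without stating that each is a separate mouse, so p-values measure the spread between libraries, which may be technical. No strain, genotype or treatment is given in the labels.

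An osteoclast dissolves bone mineral by sealing off a patch of bone and pumping acid into it. Carbonic anhydrase makes protons and bicarbonate from carbon dioxide, the V-ATPase proton pump moves the protons across a folded membrane called the ruffled border, the Clcn7 exchanger supplies chloride, and a bicarbonate exchanger on the opposite side of the cell disposes of the base. Loss of Tcirg1, Clcn7, Ostm1, Car2, Snx10 or Plekhm1 is known to cause forms of osteopetrosis, in which bone is not resorbed. Most of these genes also act in lysosomes of other cells, and Car2 is abundant in red cells and their precursors, so Car2 is described apart from the other 6 genes.

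Library depth was 16356839 to 17876681 expected counts in aged and 17531694 to 18203443 in young mice. Markers of other cell types were detected beside those of cartilage. Summed levels in FPKM (fragments normalised for transcript length and library depth) ran from 3919 to 8214 in aged and from 6034 to 8824 in young libraries for 8 chondrocyte markers. For 7 osteoblast markers they ran from 7165 to 14979 in aged and from 17206 to 24867 in young libraries. Osteoclast markers reached 1916 to 3219 FPKM in aged and 4179 to 5411 FPKM in young libraries, summed over 11 genes that hold none of the 7, and none of the 11 was at 0 in every library. Markers of red cell precursors (5131 to 46426 in aged, 1174 to 4817 in young), neutrophils (2446 to 16822 in aged, 1755 to 5218 in young) and skeletal muscle (4229 to 14758 in aged, 544 to 4447 in young) differed between the ages too.

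Promoter sequences are shown for Clcn7 and Ostm1, whose proteins work as a pair, and for Snx10, whose fall was among the 2 that held under every library scaling. Each is the 250 bases before the outermost start of the gene in RefSeq (build GRCm38.p6, which differs from the GRCm39 build of the deposited values), on the plus strand. Clcn7 lies at chr17:25133141-25133390, Ostm1 at chr10:42678666-42678915 and Snx10 at chr6:51523653-51523902. Capitals mark matches, on either strand, to CACGTG or CATGTG (boxes bound by MITF and TFEB, which drive osteoclast and lysosome genes), GGAAA (the core of an NFAT site) and GAGGAA (the core of a PU.1 site).
Clcn7: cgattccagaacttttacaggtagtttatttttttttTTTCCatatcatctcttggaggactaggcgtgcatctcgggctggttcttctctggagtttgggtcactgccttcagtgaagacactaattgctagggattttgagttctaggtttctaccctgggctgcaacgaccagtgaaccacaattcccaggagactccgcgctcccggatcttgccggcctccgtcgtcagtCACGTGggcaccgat
Ostm1: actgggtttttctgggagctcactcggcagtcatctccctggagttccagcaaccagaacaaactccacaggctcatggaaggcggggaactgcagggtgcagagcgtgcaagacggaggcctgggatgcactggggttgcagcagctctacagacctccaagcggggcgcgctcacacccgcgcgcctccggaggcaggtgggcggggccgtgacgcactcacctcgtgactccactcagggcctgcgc
Snx10: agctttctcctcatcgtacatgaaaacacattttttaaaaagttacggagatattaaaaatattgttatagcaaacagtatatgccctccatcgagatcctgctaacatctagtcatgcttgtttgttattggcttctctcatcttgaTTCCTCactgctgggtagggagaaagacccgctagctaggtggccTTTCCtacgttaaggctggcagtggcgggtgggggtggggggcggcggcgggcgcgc
The Clcn7 window held 1 CACGTG, 15 bases before the start, and 1 GGAAA. The Ostm1 window held none of these letters, and the Snx10 window held 1 GAGGAA and 1 GGAAA. Over 32851 windows of the same length, 6.02% held CACGTG, 12.25% CATGTG, 55.57% GGAAA and 23.25% GAGGAA. Tcirg1 and Plekhm1 were also in the RefSeq table, and no promoter of Atp6v0d2 or Car2 was used here.

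The question was whether the genes of the acid machinery differed with age. All 7 passed the low-count filter and the test, 6 lower and 1 higher in aged mice (edgeR quasi-likelihood test with Benjamini-Hochberg adjustment over 14067 tested genes, threshold 0.05). That test called 46.2% of all tested genes, 21.6% lower and 24.7% higher. The 6 genes other than Car2 had a median log2 fold change (aged over young) of −0.37, against 0.014 over all tested genes. In FPKM, only Snx10, Atp6v0d2 and Car2 had values that did not overlap between the ages, and the same 3 did not overlap in CPM, as was the case for 19.2% of tested genes. In bulk tissue, fewer cells of a type and less RNA per cell cannot be told apart.

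How libraries were scaled decided 4 of the 6 lower calls. Fold changes came from counts scaled by TMM, which centres most genes near no change. With library sizes alone the median of all genes was 0.24, and on log2(FPKM + 0.1) it was 0.21. Atp6v0d2 and Snx10 passed the test under each of these scalings, while Tcirg1, Clcn7, Ostm1 and Plekhm1 passed with TMM or RLE factors but not with library sizes alone or on log2 FPKM. Over all tested genes 8.91% were lower and 50% higher with library sizes alone, and 9.71% lower and 44.3% higher on log2(FPKM + 0.1). Ostm1 changed sign with library sizes alone (0.0098, edgeR adjusted p = 0.922). Set against the median of all genes, Tcirg1 lay at −0.46 with TMM and −0.46 with library sizes alone, and Snx10 at −0.68 under both. Leaving out the TMM factors shifts all genes by nearly the same amount, so this distance cannot show whether a fall holds.

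**Figure D1:**
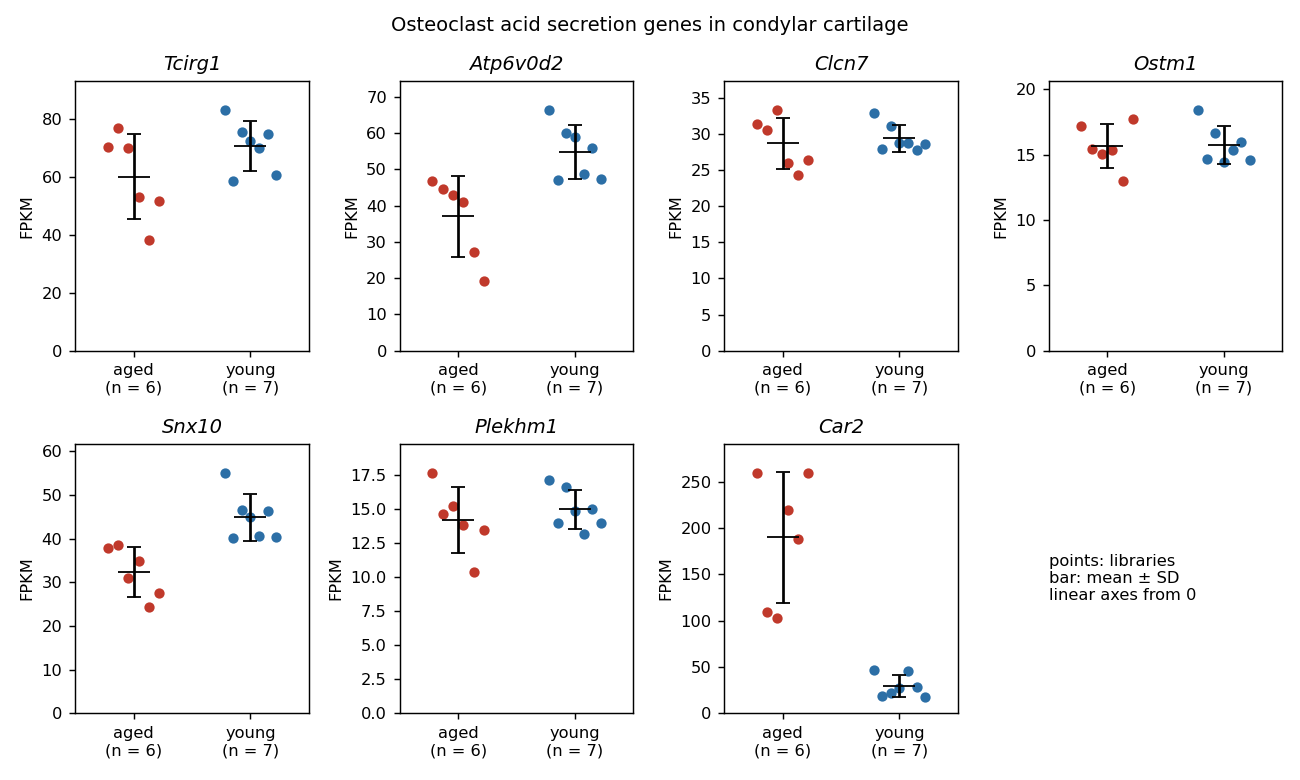
FPKM of each of the 7 genes in every library, aged left of young, with the mean and SD as bars on linear axes from 0. Atp6v0d2 and Snx10 are lower and Car2 higher in every aged library, while the ranges of the other 4 genes overlap.

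Tcirg1 (gene ID 27060) encodes the a3 subunit, which holds the proton path of the pump and directs it to the ruffled border. Its level was 38.1 to 77.0 FPKM (median 61.6) in aged and 58.6 to 83.2 FPKM (median 72.4) in young libraries. The ages overlapped, since aged replicates 1, 2 and 3 lay inside the young range. Its log2 fold change was −0.45 ± 0.13 (SE, edgeR adjusted p = 0.0141). Scaled by library sizes alone it was −0.21 (edgeR adjusted p = 0.216).

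Atp6v0d2 (gene ID 242341) encodes the d2 subunit of the membrane part of the pump, which in mice is also needed for fusion of osteoclast precursors. It had 19.3 to 46.9 FPKM (median 42.1) in aged and 47.1 to 66.4 FPKM (median 56.0) in young libraries. The highest aged library lay just under the lowest young one, and aged replicates 5 and 6, at 27.3 and 19.3 FPKM, lay far under the rest. The log2 fold change was −0.77 ± 0.17 (SE, edgeR adjusted p = 0.00247), the largest fall of the 7. It came to −0.54 with library sizes alone (edgeR adjusted p = 0.0181).

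Clcn7 (gene ID 26373) encodes the exchanger that trades chloride for protons in lysosomes and the ruffled border. It measured 24.3 to 33.3 FPKM (median 28.5) in aged and 27.8 to 32.9 FPKM (median 28.7) in young libraries. The aged range enclosed the young one. Aged over young, the log2 value was −0.25 ± 0.07 (SE; edgeR, adjusted p = 0.00965), and with library sizes alone −0.018 (edgeR, adjusted p = 0.855).

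Ostm1 (gene ID 14628) encodes the partner that Clcn7 needs for its stability. It measured 13.02 to 17.75 FPKM (median 15.4) in aged and 14.4 to 18.4 FPKM (median 15.4) in young libraries, so both ages covered almost the same range. Its log2 fold change was −0.22 ± 0.07 (SE, edgeR adjusted p = 0.0180).

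Snx10 (gene ID 71982), a sorting nexin of endosomes that osteoclasts need to form a ruffled border, had 24.3 to 38.5 FPKM (median 32.9) in aged and 40.3 to 55.1 FPKM (median 44.9) in young libraries. Every aged library lay under every young one. The log2 fold change was −0.67 ± 0.10 (SE, edgeR adjusted p = 0.000104). Scaled by library sizes alone it was −0.44 (edgeR adjusted p = 0.00338).

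Plekhm1 (gene ID 353047), an adaptor that links Rab7 to the fusion of late endosomes and lysosomes, had 10.4 to 17.7 FPKM (median 14.2) in aged and 13.2 to 17.1 FPKM (median 14.9) in young libraries, and the ages overlapped. Its log2 fold change was −0.30 ± 0.09 (SE, edgeR adjusted p = 0.0148). Scaled by library sizes alone it was −0.069 (edgeR adjusted p = 0.576).

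Marker scores were entered as covariates in turn. With a red cell precursor score 0 of the 6 genes passed (edgeR), while their log2 fold changes all stayed negative: Snx10 was at −0.67, Atp6v0d2 at −0.49, Ostm1 at −0.39, Tcirg1 at −0.28, Plekhm1 at −0.19 and Clcn7 at −0.052. With the osteoclast score 0 passed as well, Snx10 was at −0.10 and the other 5 were positive, from 0.046 for Ostm1 to 0.43 for Tcirg1. Both scores separated the ages completely, at 5.77 to 7.83 in aged against 2.45 to 4.89 in young libraries for red cell precursors and 5.68 to 6.48 in aged against 6.78 to 7.10 in young for osteoclasts (mean log2 CPM), so age and score cannot be told apart in these fits. With a neutrophil score Snx10 alone passed, at −0.75, and the log2 fold changes of the others were −0.68 for Atp6v0d2, −0.46 for Tcirg1, −0.31 for Plekhm1, −0.28 for Ostm1 and −0.13 for Clcn7. With a muscle score Snx10 (−0.59) and Atp6v0d2 (−0.83) passed, and the others were at −0.39 for Tcirg1, −0.23 for Clcn7, −0.17 for Plekhm1 and −0.038 for Ostm1.

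**Figure D2:**
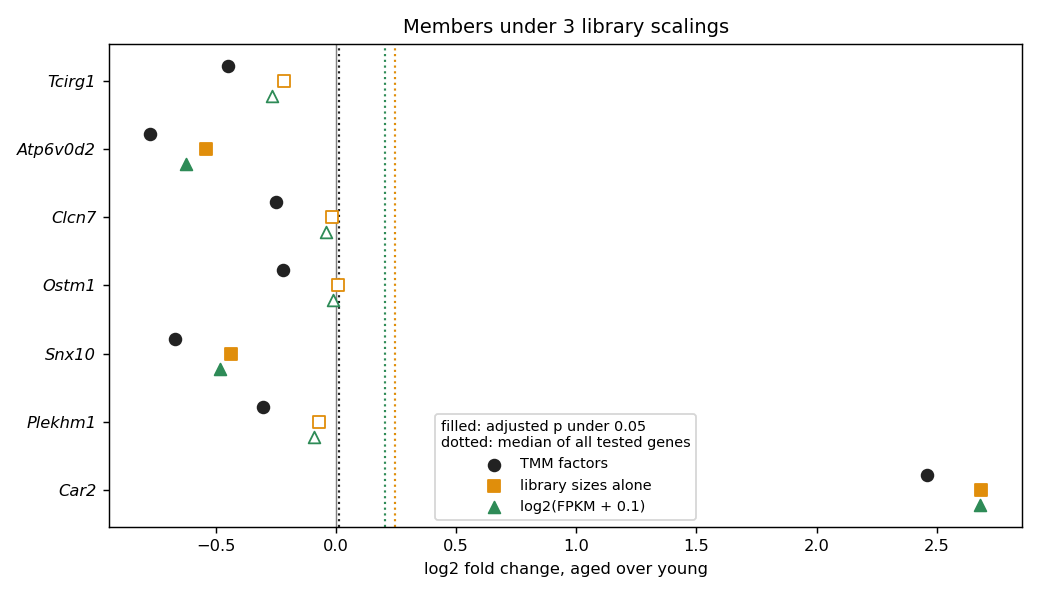
Log2 fold changes (aged over young) of the 7 genes under 3 library scalings, filled where the adjusted p is under 0.05, with the median of all genes dotted. Atp6v0d2, Snx10 and Car2 are filled under all 3, and the other 4 with TMM only.

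Per length, the genes kept much the same order at both ages apart from Car2. In aged libraries Car2 led with 189.9 ± 70.5 FPKM, followed by Tcirg1 with 60.1 ± 14.8, Atp6v0d2 with 37.1 ± 11.1, Snx10 with 32.3 ± 5.72, Clcn7 with 28.7 ± 3.56, Ostm1 with 15.6 ± 1.68 and Plekhm1 with 14.2 ± 2.40 (SD, n = 6). The ranges of mean ± SD of Atp6v0d2, Snx10 and Clcn7 overlapped there, as did those of Ostm1 and Plekhm1. In young libraries Tcirg1 led with 70.8 ± 8.63 FPKM, followed by Atp6v0d2 with 54.9 ± 7.43, Snx10 with 44.9 ± 5.33, Car2 with 29.6 ± 12.2, Clcn7 with 29.4 ± 1.90, Ostm1 with 15.7 ± 1.44 and Plekhm1 with 14.95 ± 1.44 (SD, n = 7). The means of Car2 and Clcn7 lay within each other's SD in young libraries, as did those of Ostm1 and Plekhm1. These spreads are between libraries, and the order of the genes within a library was not tested.

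Single libraries stood out across the genes. Aged replicate 5 was the lowest aged library for 5 of the 7 genes in FPKM, and young replicate 1 was the highest young library for all 7. With log2 CPM centred within each age over the 13 libraries, the 15 pairs among the 6 genes had a Pearson r of −0.016 to 0.82 with a median of 0.64. The lowest pair was Atp6v0d2 with Ostm1 and the highest Tcirg1 with Snx10. Car2 stood apart, with a median r of −0.14 to the 6 (range −0.39 to 0.37). These values share library and depth and are a description.

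Car2 (gene ID 12349) was the gene that rose. It had 102.5 to 259.9 FPKM (median 204.0) in aged and 17.3 to 46.9 FPKM (median 27.9) in young libraries, and the lowest aged library lay above the highest young one. The log2 fold change was 2.46 ± 0.28 (SE, edgeR adjusted p = 1.73e-05), a 5.50-fold higher level. All 16 red cell precursor markers rose with it, with a median log2 fold change of 3.66, while 24.7% of all tested genes rose. Among them was Slc4a1, the bicarbonate exchanger of the red cell membrane, at 147.0 ± 73.1 FPKM in aged and 8.69 ± 7.62 FPKM in young libraries (SD, n = 6 and 7; log2 fold change 3.87 ± 0.54, SE, edgeR adjusted p = 7.74e-05). With the red cell precursor score as a covariate the log2 fold change of Car2 was 0.21 (edgeR adjusted p = 0.560), and with the osteoclast score 1.84 (edgeR adjusted p = 0.118). Car2 kept its call with the neutrophil score, at 1.83 (edgeR adjusted p = 0.00313), and with the muscle score, at 3.06 (edgeR adjusted p = 7.36e-05). The red cell precursor and osteoclast scores separate the ages, so their part in the difference cannot be told apart from age.

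Within each age, Car2 was tested against the red cell precursor score and the osteoclast score, and only the relation to the first passed, by Pearson r. Its Pearson r with the red cell precursor score was 0.96 in aged libraries (exact permutation test of r, n = 6, adjusted p = 0.0296) and 0.97 in young libraries (exact permutation test of r, n = 7, adjusted p = 0.0222). Spearman rho was 0.94 in aged and 0.93 in young libraries and did not pass (exact permutation test of rho, adjusted p = 0.156 at each age). Without the 2 libraries farthest from the median score, r was 0.997 in aged and 0.985 in young libraries. With the osteoclast score its r was −0.51 in aged libraries (exact permutation, adjusted p = 0.497) and 0.032 in young libraries (exact permutation, adjusted p = 0.932). Among 9234 candidates, genes whose pattern was most like Car2 over the 13 libraries, each centred within its age, included Gfi1b (r 0.97), Rhd (r 0.96), Slc4a1 (r 0.96) and Tal1 (r 0.95). Gfi1b and Tal1 are transcription factors of red cell precursors, and Rhd and Slc4a1 encode red cell membrane proteins. Slc4a1 is in the score.

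Among its relatives Car2 made up 51.8% to 71.9% of the summed FPKM of Car1, Car2 and Car3 in aged and 10.1% to 22.2% in young libraries. Car1, the other red cell form, was at 46.0 ± 17.3 FPKM in aged and 3.39 ± 2.31 in young libraries (log2 fold change 3.58 ± 0.40). Car3, the form of muscle and fat, was at 63.8 ± 19.2 FPKM in aged and 162 ± 10.7 in young libraries (−1.53 ± 0.16). Car2 rose less than Slc4a1 did. The ratio of their FPKM was 1.13 to 1.92 (median 1.35) in aged and 1.93 to 6.74 (median 4.45) in young libraries, a log2 difference of −1.58 ± 0.24 (SE, two-sided exact permutation test, adjusted p = 0.00200). The highest aged ratio lay just under the lowest young one.

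**Figure D3:**
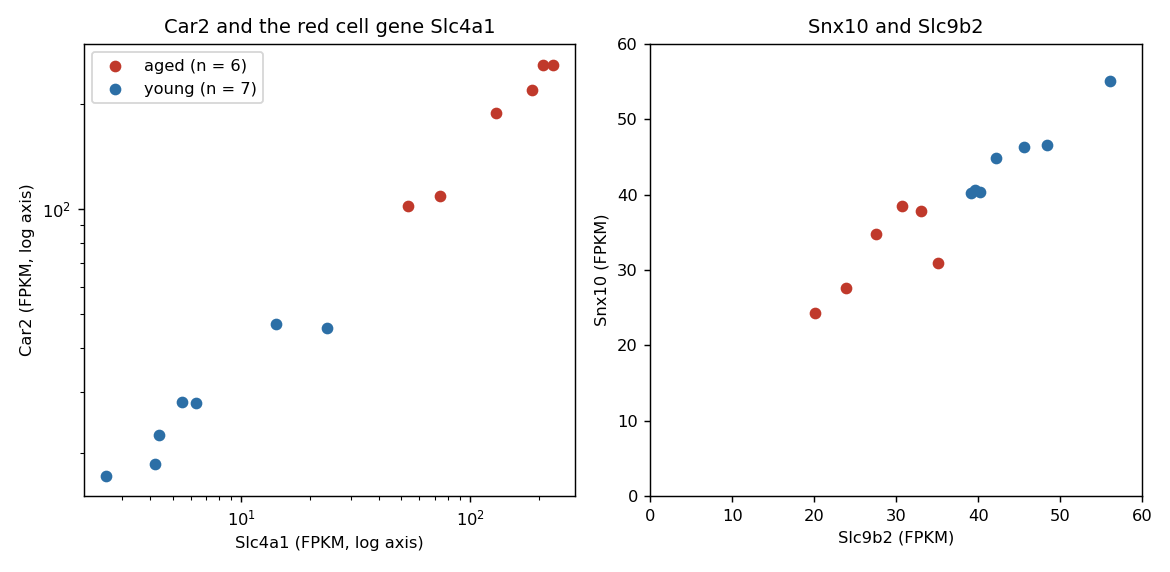
Left, Car2 against Slc4a1 in FPKM on log axes, and right, Snx10 against Slc9b2 in FPKM on linear axes, with 1 point per library (aged red, young blue). Car2 climbs with Slc4a1 within both ages, and every aged library lies under every young one for Snx10 and for Slc9b2.

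The other 6 genes followed the osteoclast score within an age in part. How many of all tested genes follow it as closely was not tested. Of the 28 relations tested (7 genes, 2 scores, 2 ages), 6 passed an adjusted p of 0.05 by Pearson r, and none did by Spearman rho, whose smallest adjusted p was 0.156. Tcirg1 had r 0.94 in aged libraries (rho 0.83; exact permutation, n = 6, adjusted p = 0.0444; r 0.85 without the 2 farthest libraries). Clcn7 had r 0.93 in aged libraries (rho 0.94; exact permutation, n = 6, adjusted p = 0.0444; r 0.93 without them). Among young libraries Ostm1 had r 0.90 (rho 0.82; exact permutation, n = 7, adjusted p = 0.0296; r 0.86 without the 2 farthest) and Plekhm1 r 0.87 (rho 0.75; exact permutation, n = 7, adjusted p = 0.0444; r 0.64 without them). At the other age these relations did not pass on log2 CPM. Ostm1 had r 0.43 in aged libraries (rho 0.14; r −0.85 without the 2 farthest), and Plekhm1 had r 0.92 (rho 0.89; exact permutation, n = 6, adjusted p = 0.05, at and not under the threshold; r 0.79 without them). Tcirg1 had r 0.58 in young libraries (rho 0.57; r 0.16 without the 2 farthest), and Clcn7 r 0.75 (rho 0.61; r 0.085 without them). Atp6v0d2 and Snx10 had r 0.70 and 0.75 in aged and 0.63 and 0.75 in young libraries, none of which passed on log2 CPM. On log2 FPKM, Plekhm1 in aged libraries (exact permutation, adjusted p = 0.0343) and Snx10 in young libraries (exact permutation, adjusted p = 0.0437) passed as well. The remaining 2 of the 6 relations that passed on log2 CPM were those of Car2 with the red cell precursor score.

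The gene most like the 6 in pattern was Slc9b2, a sodium and proton exchanger known from osteoclasts, with r 0.97 to their mean over the 13 libraries centred within age. Slc9b2 had 20.1 to 35.2 FPKM in aged and 39.1 to 56.1 FPKM in young libraries, which did not overlap, and differed by −0.85 ± 0.12 on the log2 scale (SE; edgeR, adjusted p = 7.69e-05). Next came Atp6v1c1, a C subunit of the pump, Fblim1, Rbm4 and Prkd2, each at r 0.95. Atp6v1c1 (−0.53 ± 0.08), Fblim1 (−0.76 ± 0.14) and Rbm4 (−0.37 ± 0.11) were lower in aged mice, and Prkd2 was not called (0.064 ± 0.075, SE, edgeR adjusted p = 0.515).

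The rest of the proton pump moved in both directions. Of 23 other V-ATPase genes listed, 22 were in the table and 19 were tested, of which 11 were lower, 3 higher and 5 not called, with a median log2 fold change of −0.23. With library sizes alone 2 were lower and 3 higher and the median was 0.000802, and on log2(FPKM + 0.1) 5 were lower and 3 higher. Over all tested genes 21.6% were lower and 24.7% higher with TMM. With library sizes alone 8.91% of them were lower and 50% higher, and their median was 0.24. On log2(FPKM + 0.1) those shares were 9.71% and 44.3%. The V-ATPase genes lower with TMM included the soluble subunits Atp6v1c1, at 30.9 ± 4.27 FPKM in aged and 38.8 ± 4.35 in young libraries, Atp6v1h (−0.46 ± 0.06) and Atp6v1a (−0.46 ± 0.09).

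Among the relatives of Tcirg1 and Atp6v0d2 that serve in other cells, Atp6v0a1 and Atp6v0a4 rose. Atp6v0a1, a relative of Tcirg1 found in many cells, was at 23.2 ± 3.29 FPKM in aged and 14.5 ± 0.551 FPKM in young libraries (log2 fold change 0.45 ± 0.06, SE, edgeR adjusted p = 6.38e-05). Atp6v0a4, the a subunit of kidney, was low, at 0.890 ± 0.340 FPKM in aged and 0.266 ± 0.122 in young libraries (1.54 ± 0.33). Atp6v0a2 had 17.7 ± 0.825 FPKM in aged and 16.8 ± 0.624 in young libraries. Its log2 fold change of −0.14 ± 0.05 (edgeR adjusted p = 0.0372) lost its call without each of several libraries (aged replicates 1, 2, 3 or 6, or young replicates 1, 2, 3, 6 or 7) and became 0.091 with library sizes alone. Atp6v0d1, the widely expressed d subunit, had 54.8 ± 5.71 FPKM in aged and 52.7 ± 2.92 in young libraries and was not called (−0.14 ± 0.06, edgeR adjusted p = 0.0663), although without aged replicate 6 it was called lower (−0.19, edgeR adjusted p = 0.0117).

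Ratios within a library do not depend on how libraries are scaled. The ratio of Tcirg1 to Atp6v0a1 was 1.74 to 3.72 (median 2.49) in aged and 4.29 to 5.63 (median 4.84) in young libraries. The ages did not overlap, and the log2 difference was −0.93 ± 0.17 (SE, two-sided exact permutation test p = 0.000583, the smallest the splits can give, adjusted p = 0.00117 over 12 ratios). Tcirg1 made up 58.2% ± 6.62 of the a subunit FPKM in aged and 69.0% ± 2.32 in young libraries (SD, n = 6 and 7).

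The ratio of Atp6v0d2 to Atp6v0d1 was 0.309 to 0.958 (median 0.771) in aged and 0.851 to 1.21 (median 1.05) in young libraries. The ranges overlapped, and the log2 difference of −0.67 ± 0.26 (SE) passed the exact permutation test (adjusted p = 0.00437). Atp6v0d2 also fell relative to Tcirg1, with a ratio of 0.372 to 0.772 in aged and 0.699 to 0.814 in young libraries (log2 difference −0.36 ± 0.15, SE, exact permutation test, adjusted p = 0.00544). Without aged replicate 6 that difference was −0.22 (exact permutation test, adjusted p = 0.0121).

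Clcn7 and Ostm1 kept nearly the same ratio at both ages. It was 1.49 to 2.21 (median 1.85) in aged and 1.74 to 1.99 (median 1.87) in young libraries, a log2 difference of −0.030 ± 0.083 (SE; adjusted p = 0.705 by the exact permutation test), and this p does not show equality. The other chloride channel genes moved in both directions. Clcn3 was at 11.7 ± 2.75 FPKM in aged and 4.85 ± 0.314 in young libraries (1.04 ± 0.11), Clcn6 at 5.70 ± 0.686 in aged and 4.17 ± 0.455 in young (0.23 ± 0.08), and Clcn1, the muscle channel, at 4.37 ± 2.08 in aged and 0.657 ± 0.536 in young (2.52 ± 0.51). Clcn5 was lower, at 1.68 ± 0.306 FPKM in aged and 2.26 ± 0.332 in young libraries (−0.62 ± 0.10), as was Clcn4 with TMM, at 26.9 ± 1.05 in aged and 27.6 ± 1.10 in young (−0.25 ± 0.05, and −0.017 with library sizes alone). Of the 6 tested, 4 rose and 2 fell (median 0.23), against 4 and 1 with library sizes alone. Shares of all tested genes that rose and fell were 24.7% and 21.6% with TMM (median 0.014). With library sizes alone those shares were 50% and 8.91% (median 0.24). The call of Clcn6 was lost when single libraries were left out (aged replicates 1, 2, 3 or 5, or young replicates 1, 2, 3, 4 or 6). Clcn7 made up 38.3% ± 3.56 of the summed FPKM of Clcn3 to Clcn7 in aged and 43.0% ± 1.63 in young libraries.

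**Figure D4:**
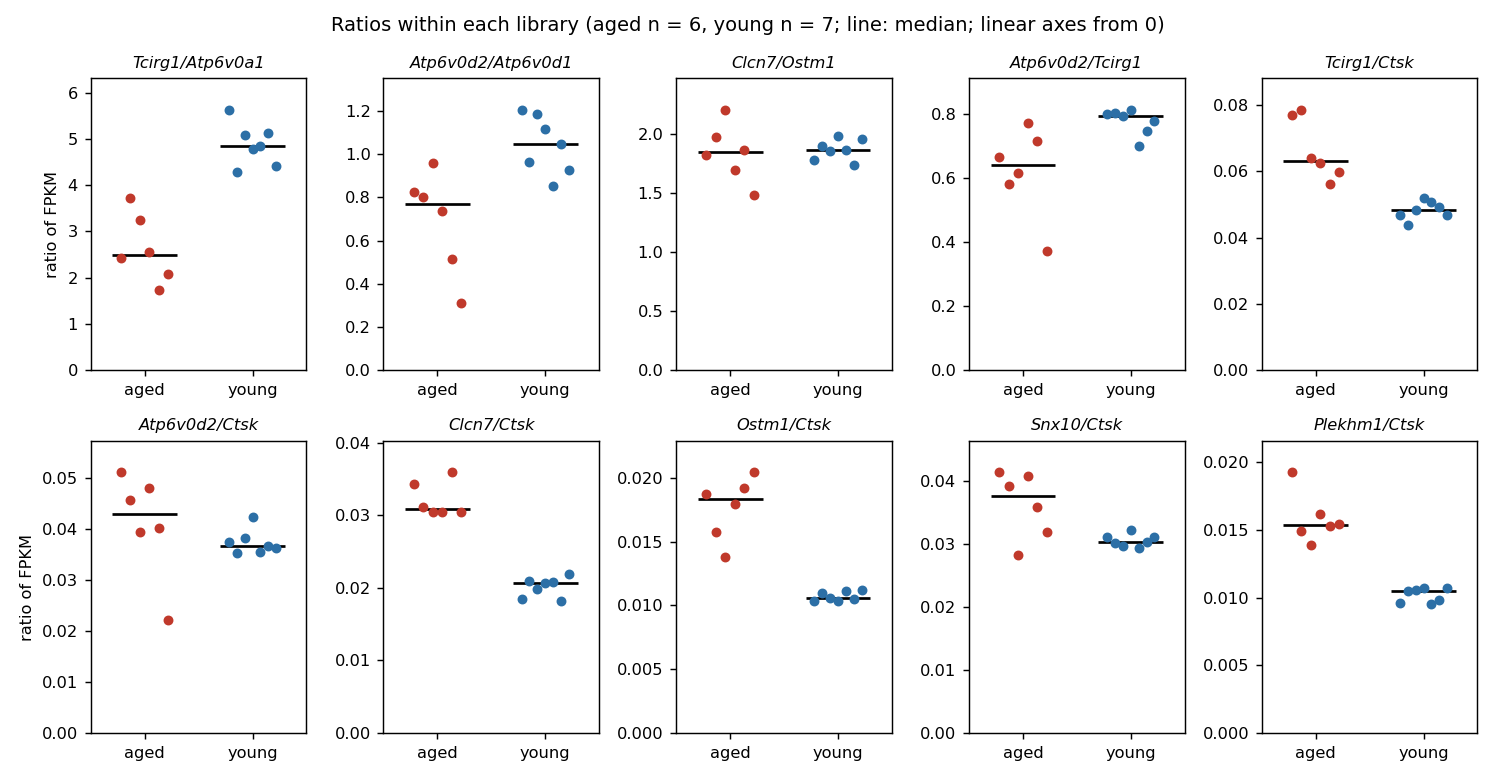
Ratio of FPKM within each library for the gene pairs compared apart from those of Car2, aged left of young, with a line at the median, on linear axes from 0. Tcirg1 to Atp6v0a1 separates the ages and Clcn7 to Ostm1 does not.

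With TMM, Tcirg1, Clcn7, Ostm1 and Plekhm1 fell less than Ctsk, the main matrix-degrading gene of osteoclasts. Their ratios to it show an unequal change and not a fall of these genes, whose calls were lost with library sizes alone. Ctsk, the cathepsin that cuts bone collagen, was at 898 ± 139 FPKM in aged and 1468 ± 167 FPKM in young libraries (log2 fold change −0.90 ± 0.11, SE, edgeR adjusted p = 2.23e-05). Acp5, the tartrate-resistant acid phosphatase, was at 1076 ± 243 FPKM in aged and 2104 ± 188 in young libraries (−1.15 ± 0.13). All 4 genes of matrix degradation listed (Ctsk, Acp5, Mmp9, Mmp14) were lower, with a median of −1.004, while 21.6% of all tested genes were lower.

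Relative to Ctsk, 5 of the 7 genes were higher in every aged library than in any young one. Ctsk itself fell by −0.90, against a median of 0.014 over all tested genes, so an unchanged gene would also rise relative to it. How many of all tested genes separate the ages in this ratio was not tested. Tcirg1 over Ctsk was 0.0562 to 0.0786 in aged and 0.0439 to 0.0520 in young libraries (log2 difference 0.45 ± 0.09, SE), and Clcn7 over Ctsk was 0.0304 to 0.0359 in aged and 0.0182 to 0.0220 in young (0.67 ± 0.06). Ostm1 (0.70 ± 0.09), Plekhm1 (0.63 ± 0.07) and Car2 (3.40 ± 0.36) did likewise, each with an adjusted p of 0.00117 by the exact permutation test. Snx10 over Ctsk was 0.0282 to 0.0413 in aged and 0.0294 to 0.0322 in young libraries (0.23 ± 0.09, exact permutation test, adjusted p = 0.0308), and the call was lost (adjusted p from 0.0519 to 0.0571) without aged replicate 1 or 4 or young replicate 2, 3, 5 or 6. Atp6v0d2 over Ctsk was 0.0222 to 0.0512 in aged and 0.0353 to 0.0423 in young libraries (0.093 ± 0.18, exact permutation test, adjusted p = 0.705). Without aged replicate 6 it was 0.26 (exact permutation test, adjusted p = 0.00758).

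Of the 11 osteoclast markers of the score, which include Ctsk, Acp5 and Mmp9, 8 were lower, 1 higher and 2 not called, with a median of −0.90, and the counts were the same with library sizes alone and on log2(FPKM + 0.1). Ocstamp, which osteoclasts need to fuse, was at 7.71 ± 1.29 FPKM in aged and 18.2 ± 1.76 in young libraries (−1.44 ± 0.10). The one that rose was Nfatc1, the transcription factor of osteoclast formation, at 60.4 ± 5.30 FPKM in aged and 41.98 ± 2.55 in young libraries (0.31 ± 0.07, SE, edgeR adjusted p = 0.00332). Of 6 factors known to drive lysosome or osteoclast genes, 2 rose (Tfeb and Nfatc1, which is also among the 11 markers) and none fell. With library sizes alone 4 rose. Over all tested genes 24.7% rose and 21.6% fell with TMM, and 50% rose and 8.91% fell with library sizes alone. Tfeb was at 15.2 ± 1.17 FPKM in aged and 9.39 ± 0.695 in young libraries (0.48 ± 0.07).

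On the other side of the cell, Slc4a2, the bicarbonate exchanger of osteoclasts, was at 41.7 ± 5.68 FPKM in aged and 50.6 ± 4.02 in young libraries (−0.49 ± 0.08, SE, edgeR adjusted p = 0.000283). Scaled by library sizes alone it was −0.26 (edgeR adjusted p = 0.0161). With TMM, 24.7% of all tested genes rose and 21.6% fell. Of 5 bicarbonate transport genes 2 rose, 1 fell and 2 were not called. Among 12 tested carbonic anhydrases besides Car2, 5 rose, 4 fell and 3 were not called, and Car12, a membrane form, had the largest fall (2.54 ± 0.837 FPKM, against 9.76 ± 2.11 in young libraries; −2.16 ± 0.21).

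Genes that carry vesicles to the ruffled border moved both ways. Of 19 tested, 4 rose, 5 fell and 10 were not called (median −0.07), while with library sizes alone 10 rose and 2 fell. Those shares were near those of all tested genes, of which 24.7% rose and 21.6% fell with TMM and 50% rose and 8.91% fell with library sizes alone. Rab27a was at 11.1 ± 3.52 FPKM in aged and 3.71 ± 0.984 in young libraries (1.36 ± 0.21), and Rab38 at 6.88 ± 1.17 in aged and 10.4 ± 1.46 in young libraries (−0.79 ± 0.11). Both are small GTPases of secretory and lysosome-related organelles. Of 22 general lysosome genes, 3 rose, 12 fell and 7 were not called (median −0.20), against 8 and 5 with library sizes alone. The largest rise was Scarb2 (0.41 ± 0.07), a lysosome membrane receptor.

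**Figure D5:**
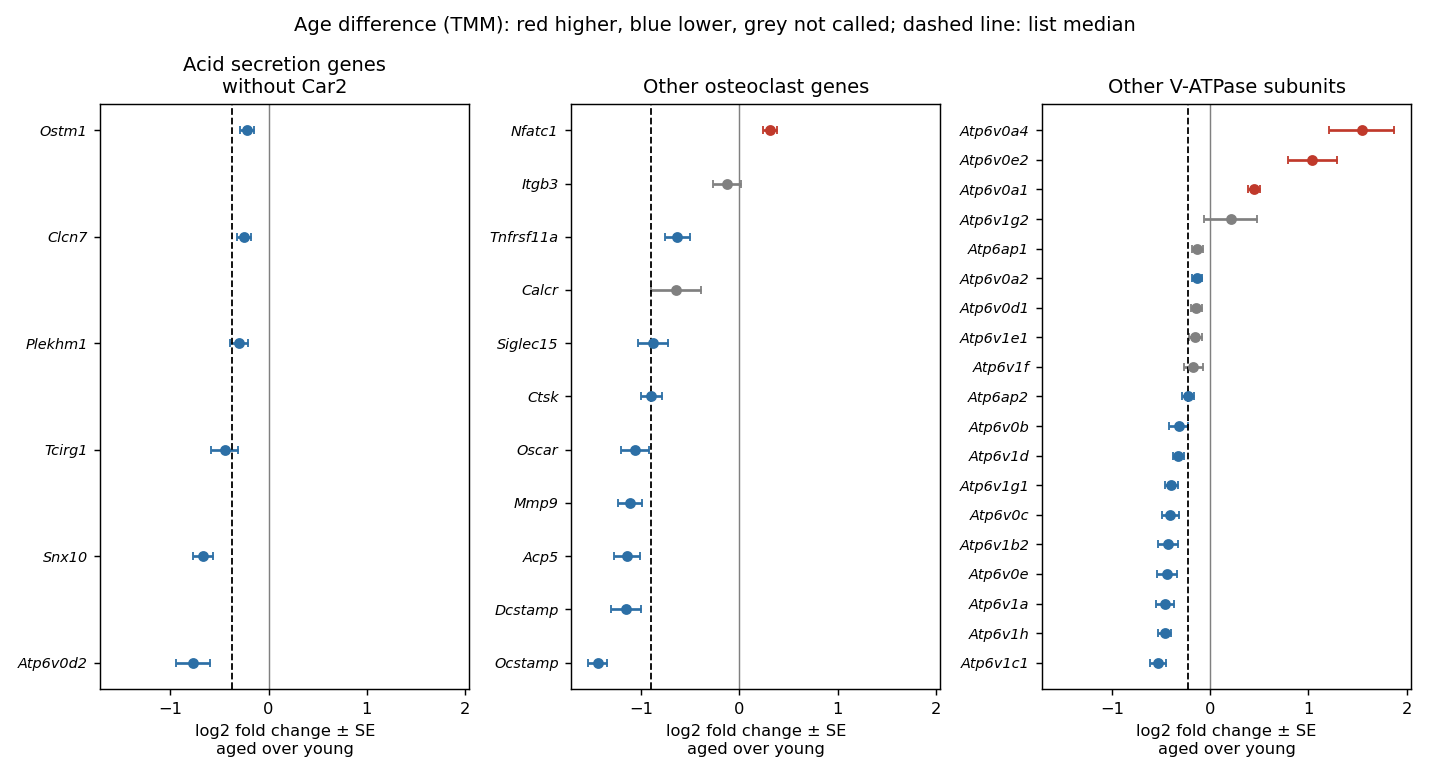
Log2 fold changes (aged over young, ± SE, TMM) of the 6 acid genes besides Car2, the osteoclast markers and the other V-ATPase genes, red where higher, blue where lower and grey where not called, with each list's median dashed. The 6 acid genes lie between −0.77 and −0.22, and the osteoclast markers reach −1.44.

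Markers of other cells that could supply these transcripts moved as follows, and apart from the fits above their part was not tested. Of 11 macrophage markers 5 rose, 2 fell and 4 were not called (median 0.29), with Lyz2 highest (1.31 ± 0.24) and Csf1r lowest (−0.46 ± 0.12), and with library sizes alone 7 rose and 0 fell. Among all tested genes 24.7% rose and 21.6% fell with TMM, and 50% rose and 8.91% fell with library sizes alone. Of 13 neutrophil markers 12 rose (Fcnb 2.17 ± 0.38), and of 15 skeletal muscle markers 13 rose (Myh1 2.49 ± 0.57). Of 8 chondrocyte markers 1 rose (Comp 1.02 ± 0.17) and 5 fell (Col9a1 −5.06 ± 0.43), and of 7 osteoblast markers 6 fell (Bglap −1.85 ± 0.23).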

How the data were processed

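TRIzol extraction and oligo(dT) enrichment preceded sequencing, per the labels' protocols, as paired, strand-specific reads on a DNBSEQ instrument. The submitters' processing notes name HISAT2 2.1.0, Bowtie2 2.3.4.3, RSEM 1.3.1, DESeq2 1.4.5 and the build GRCm39, without roles or an annotation. A single table deposited by the authors holds, per the file headers, a read count, FPKM and TPM for each gene and library. The deposited read counts are expected counts, since 5.30% were not whole. The deposited FPKM and TPM were normalised by the authors for gene length and depth.

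Titles gave each library its age. Rounded expected counts were tested with edgeR 4.0.16 in R 4.3.3 (filterByExpr with minimum count 10 and minimum total 15, TMM, robust quasi-likelihood test), aged over young in all 13 libraries. P-values were adjusted over all 14067 tested genes by Benjamini-Hochberg. Levels are FPKM, since gene lengths differ, and log2 CPM used a prior count of 2. Ratios used FPKM with a pseudocount of 0.1 and a two-sided exact permutation test. Scores were the mean log2 CPM of marker lists that hold none of the 7 genes. Members and lists were chosen with earlier results of these data known, so no p-value was adjusted over a list alone. Genes named were the 7, their close relatives and partners, the largest called rise and fall of each list, and the 5 genes most alike in pattern among those with a mean FPKM of at least 5. A few of these are left out of the text. Atp6v1h, Atp6v1a, Mmp9 and Mmp14 were named after their values were seen. Scripts were tested on simulated counts. Within an age, every pair of libraries differed by more than sampling noise (smallest chi-square per degree of freedom 10.3). At this depth the spread between libraries, not counting error, limits the precision of the 7 genes. DESeq2 1.42.0, limma 3.58.1 on counts and on log2 FPKM, other scalings and filters, marker scores as covariates, a replicate block and each library left out in turn were alternatives. Figures were drawn with matplotlib 3.10.9.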

Additional observations from a re-analysis of the deposited data

Results flagged for a closer look

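Of 38 groups of values checked (each gene's FPKM and each ratio within an age), 2 held a library far from the others, and chance flags about 1 in 20 such groups. Snx10 had 55.13 FPKM in young replicate 1, and the next highest young library had 46.65 FPKM. The log2 ratio of Atp6v0d2 to Ctsk was −5.48 in aged replicate 6, and the next lowest aged library had −4.66.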

How the results depend on the processing

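Both counts of called genes among the 7, 6 lower and 1 higher, were the same without a low-count filter, with a stricter one, with RLE factors, with DESeq2, with limma-voom, with a replicate block and with each library left out in turn (6 to 6 lower, 1 to 1 higher; all tested genes 2739 to 3100 lower and 3149 to 3413 higher). Lower calls among the 7 were 2 with library sizes alone, 2 on log2(FPKM + 1), 2 on log2(FPKM + 0.1), 0 with the red cell precursor score, 1 with the neutrophil score, 2 with the muscle score and 0 with the osteoclast score as covariate, and higher calls 0 with the red cell precursor and 0 with the osteoclast score. Lost calls did not all mean smaller values: with the red cell precursor score Snx10 lost its call at −0.67, against −0.67 without a score. Snx10 kept its call with the neutrophil (−0.75) and muscle (−0.59) scores. In the same order of settings, all tested genes numbered 1253, 1361, 1366, 519, 1852, 1750 and 693 lower, against 3033, and 7034, 6250, 6234, 763, 2102, 1989 and 329 higher, against 3471. With the osteoclast score as covariate the log2 fold change reversed for Tcirg1 (0.43), Atp6v0d2 (0.11), Clcn7 (0.18), Ostm1 (0.046), Plekhm1 (0.32), Slc4a2 (0.026), Atp6v1c1 (0.016), Nfatc1 (−0.020), Csf1r (0.34), Slc9b2 (0.020), Fblim1 (0.29) and Rbm4 (0.38), none past the threshold. Nfatc1 is itself in that score. Library sizes alone reversed Ostm1 (0.0098), Atp6v0a2 (0.091) and Atp6v0d1 (0.090), and FPKM reversed Atp6v0a2 (0.076 with pseudocount 1, 0.080 with 0.1) and Atp6v0d1 (0.049 and 0.050). With a library left out the log2 difference of Clcn7 to Ostm1 ran from −0.084 to 0.029, positive without aged replicate 6. Of the 12 ratios 10 passed, and 9 to 11 with a library left out; pseudocounts and log2 CPM changed no call. The 6 correlations were 8 on log2 FPKM, where Plekhm1 in aged and Snx10 in young libraries also passed with the osteoclast score. Same-numbered libraries deviated together unevenly (r 0.25, 0.16, 0.26, −0.12, 0.11 and 0.17 for numbers 1 to 6, with 2 of 6 aged libraries best with their own number), so not every pair passed 0.1 and the numbers were not taken to pair the libraries; the replicate block called 2712 genes lower and 3077 higher and, of the genes named, changed only the call of Atp6v0a2. The causes were not tested. Marker scores follow age, library scaling moves small changes across the threshold, and bulk tissue does not place a transcript in a cell.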
